A study of Mus musculus with 8 samples.

Results

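Arginine and nitric oxide metabolism was followed through 9 genes taken by symbol: Cps1, Otc, Ass1, Asl, Arg1, Arg2, Nos2, Odc1 and Slc7a2. All 9 were found among the 52459 genes of the bulk table and among the 31053 genes of each single-cell matrix. The question put to them was how hepatocyte urea cycle transcripts in whole tumor tissue stand beside the arginine-using transcripts of macrophages and neutrophils. Every tumor grew from FC1242, a mouse pancreatic cancer line of the KPC type, after injection of 100000 cells into C57BL/6 mice, and was taken 3 weeks later. The liver group held tumors of the liver that the labels call metastatic, and the primary group held tumors placed in the pancreas. Each site had 3 bulk RNA-seq libraries from total RNA of fresh tumor tissue and 1 10x single-cell library of leukocytes sorted for CD45. All groups thus share 1 cell line and 1 mouse strain, and how cells reached the liver is not detailed in the labels. Sex, age, the number of mice in a library and any batch are not given in the sources used here, so p-values measure only the spread between these libraries.

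Arginine stands at a branch point. In hepatocytes the urea cycle disposes of ammonia: Cps1 makes carbamoyl phosphate, Otc joins it to ornithine, Ass1 and Asl build and cleave argininosuccinate, and Arg1 splits the arginine that results into urea and ornithine. Macrophages can also express Arg1, or use arginine through the inducible nitric oxide synthase Nos2, and uptake through the cationic transporter Slc7a2 feeds either use. Arg2 is the mitochondrial arginase, and Odc1 takes ornithine into the polyamines that dividing cells need.

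The bulk libraries held 28513818, 36743247 and 34398930 reads in liver tumors, against 32326042, 27481390 and 33156529 reads in primary tumors. The 14 hepatocyte markers summed to between 60053.6 and 115619 CPM (reads scaled to library size by TMM) in liver libraries, against 50.7 to 299 CPM in primary libraries, and none was at 0 in a liver library. All 14 were called higher in liver tumors. Of these, Alb reached 54324, 56270 and 26835 CPM in the 3 liver libraries, so liver replicate 3 carried the least. The macrophage markers summed to between 7821 and 16263 CPM in liver libraries, against 913 to 2061 CPM in primary libraries, and Apoe, which hepatocytes make as well, was the most abundant of them. Of the 15 macrophage markers 10 were called higher in liver tumors and 1, Cd14, lower (median log2 change 1.04). All 7 markers of Kupffer or resident macrophages were called higher (median 5.94). Over all tested genes 16.7% were called higher and 6.26% lower. In bulk tissue, fewer cells of a type and less RNA per cell cannot be told apart.

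In the bulk tumors 6 of the 9 genes were higher in liver tumors and 0 were lower, by edgeR's quasi-likelihood test with Benjamini-Hochberg adjustment at 0.05 over 16487 tested genes. The same test called 16.7% of all tested genes higher in liver tumors and 6.26% lower, 23.0% in all. The 6 were the 5 urea cycle enzymes Cps1, Otc, Ass1, Asl and Arg1, and the transporter Slc7a2. Arg2, Nos2 and Odc1 were not called. The median log2 change of the 9 genes was 3.24, against -0.07 over all tested genes.

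Cps1, which commits ammonia to the cycle, lies on chromosome 1 at 67123026 to 67231259 on the plus strand (GENCODE vM21, GRCm38, as for all positions here). It stood at 2033, 2692 and 1739 CPM in the liver libraries, against 0.615, 1.46 and 0.572 CPM in the primary libraries. The primary values rest on 25, 42 and 23 reads. The groups were separated by more than 3 orders of magnitude, with a log2 change of 11.28 (SE 0.58, adjusted p = 5.99e-06). Otc (chromosome X, 10252305 to 10321024, plus strand), which makes citrulline, had 347, 344 and 187 CPM in liver libraries, while primary replicate 1 had 2 reads and the other two had 0. Over the groups this is 24221 reads in liver tumors against 2 in primary tumors, a depth-corrected ratio of 15520 with a counting interval of 4298 to 128200 (exact, 95%). Its adjusted p was 4.41e-06.

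Ass1 (chromosome 2, 31470207 to 31520672, plus strand), the enzyme that makes argininosuccinate, had 401, 348 and 266 CPM in liver libraries, against 2.07, 3.46 and 1.84 CPM in primary libraries. No primary library came near a liver one, and the log2 change was 7.11 (SE 0.37, adjusted p = 6.04e-06). Asl (chromosome 5, 130011258 to 130029247, minus strand), which releases arginine and fumarate, had 439, 253 and 181 CPM in liver libraries, against 36.3, 57.3 and 31.98 CPM in primary libraries. The groups did not overlap, and the log2 change was 2.80 (SE 0.39, adjusted p = 0.00139). Arg1 (chromosome 10, 24915221 to 24927484, minus strand) had 1146, 842 and 608 CPM in liver libraries, against 31.7, 53.2 and 21.7 CPM in primary libraries. Every liver library exceeded every primary one, with a log2 change of 4.61 (SE 0.43, adjusted p = 0.000165).

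The order of the 5 enzymes by level per transcript length was not the same at the sites. In FPKM, liver tumors averaged 390.5 ± 96.6 for Cps1, 390.4 ± 123 for Arg1, 141 ± 29.4 for Ass1, 69.4 ± 22.6 for Otc and 60.5 ± 27.6 for Asl (SD, n = 3). Cps1 and Arg1 did not differ beyond their spread there, nor did Otc and Asl. In primary tumors the order was another: Arg1 averaged 15.9 ± 7.33 FPKM, Asl 8.61 ± 2.87 FPKM, Ass1 1.01 ± 0.376 FPKM and Cps1 0.157 ± 0.0896 FPKM (SD, n = 3), and Otc was at or under 0.01 FPKM in each library. Arg1 and Asl thus kept a measurable level in primary tumors in which Cps1 and Otc were close to 0.

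Within the liver group, replicate 3 was the lowest of the 3 libraries for Cps1, Otc, Ass1, Asl, Arg1 and Slc7a2, as it was for Alb. Within the primary group, replicate 2 was the highest for Alb (16.7 CPM, against 4.67 and 8.16 CPM in the other two) and also for Cps1, Ass1, Asl and Arg1, but the lowest for Slc7a2, and it had 0 reads of Otc. The part of hepatocyte content in the bulk differences was not tested.

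**Figure D1:**
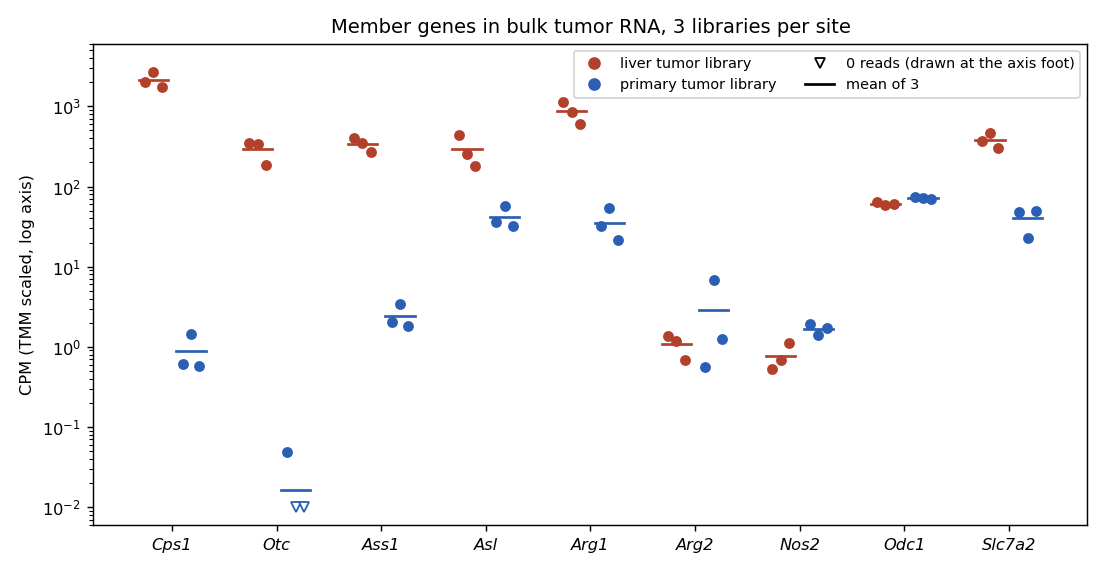
Bulk CPM (TMM scaled, log axis) of the 9 genes in each of 3 liver (left, red) and 3 primary (right, blue) tumor libraries, with the mean of 3 as a line and libraries of 0 reads as open triangles at the foot. The 5 urea cycle enzymes and Slc7a2 lie apart by site, while Arg2 overlaps. Nos2 (log2 change -1.11) and Odc1 (-0.23) sit lower in liver tumors without being called.

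Slc7a2, a cationic amino acid transporter (chromosome 8, 40862396 to 40922308, plus strand), had 366, 469 and 299 CPM in liver libraries, against 48.2, 22.7 and 49.6 CPM in primary libraries. The groups did not overlap, and the log2 change was 3.24 (SE 0.36, adjusted p = 0.00041). Its exons share 635 bases with Gm26584 on the opposite strand, and since the strandedness of the libraries is not given in the sources used here, reads of the pair cannot be told apart.

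Nos2 (chromosome 11, 78920787 to 78960254, plus strand) was sparse in bulk: 12, 20 and 37 reads in liver libraries, against 79, 40 and 69 reads in primary libraries. In CPM these were 0.528, 0.683 and 1.10 in liver tumors and 1.94, 1.39 and 1.72 in primary tumors. The groups did not overlap, as they did not for 44.1% of all tested genes, but the log2 change of -1.11 (SE 0.40) missed the threshold (adjusted p = 0.0815). Arg2 (chromosome 12, 79130777 to 79156301, plus strand) had 1.36, 1.19 and 0.685 CPM in liver libraries, against 0.566, 6.79 and 1.27 CPM in primary libraries. Only primary replicate 2 stood high, with 196 reads, and the groups overlapped (log2 change -1.40, SE 0.85, adjusted p = 0.269). Without that library the log2 change was 0.23 (adjusted p = 0.759, range over the alternatives 0.0885 to 0.759). Arg2 also shares 285 exonic bases with Vti1b and 116 with Gm48780, both on the opposite strand.

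Odc1 (chromosome 12, 17544794 to 17551505, plus strand), the rate-limiting enzyme of polyamine synthesis, was the steadiest of the 9 within groups. It had 63.8, 59.0 and 60.5 CPM in liver libraries, against 73.1, 71.4 and 70.6 CPM in primary libraries. The groups did not overlap, yet the log2 change of -0.23 (SE 0.15) was not called (adjusted p = 0.307). With plain library totals in place of TMM, which moved the median of all tested genes to -0.52, the changes of Nos2 (-1.54, adjusted p = 0.0308, range over the alternatives 0.0308 to 0.272) and Odc1 (-0.69, adjusted p = 0.024, range 0.024 to 0.584) passed the threshold as lower in liver tumors.

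RefSeq promoter sequences (GRCm38.p6) matched 3 of the 9 genes, and these 3 are shown because they were the ones matched. Otc and Ass1 were far higher in liver tumors, and Odc1 was not called. Each line is the 250 bases before the RefSeq start, 5′ to 3′ on the plus strand, with CG dinucleotides in capitals. For Ass1 and Odc1 the RefSeq start lies downstream of the GENCODE start, so the last bases of both stretches fall within the GENCODE gene. Otc is chrX:10252055-10252304, Ass1 is chr2:31470020-31470269 and Odc1 is chr12:17544623-17544872.
Otc: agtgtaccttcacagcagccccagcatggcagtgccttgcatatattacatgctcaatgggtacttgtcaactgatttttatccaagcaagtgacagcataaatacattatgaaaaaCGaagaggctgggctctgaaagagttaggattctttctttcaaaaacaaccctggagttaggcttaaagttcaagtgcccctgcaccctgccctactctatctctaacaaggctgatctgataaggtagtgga
Ass1: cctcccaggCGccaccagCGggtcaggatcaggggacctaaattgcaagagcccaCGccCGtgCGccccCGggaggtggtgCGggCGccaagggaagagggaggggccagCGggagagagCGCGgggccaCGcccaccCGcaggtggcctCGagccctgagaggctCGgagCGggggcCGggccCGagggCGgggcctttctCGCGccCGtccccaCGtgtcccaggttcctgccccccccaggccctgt
Odc1: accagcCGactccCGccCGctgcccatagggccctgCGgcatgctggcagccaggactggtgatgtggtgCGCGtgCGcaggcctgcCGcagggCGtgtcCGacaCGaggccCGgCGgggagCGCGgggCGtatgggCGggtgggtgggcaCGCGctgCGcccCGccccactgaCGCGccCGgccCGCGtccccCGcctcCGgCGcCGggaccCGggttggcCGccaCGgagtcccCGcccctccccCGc
The Otc stretch holds 1 CG and 43.6% G or C, the Ass1 stretch 23 and 75.6%, and the Odc1 stretch 35 and 80.0%. Over 32851 promoters the median is 6 CG, with quartiles of 2 and 16, and 52.4% G or C. Thus Otc and Ass1, both higher in liver tumors, fall on opposite sides of the median. Over 300 bases, 250 before to 50 after the start, none of the 3 holds TTNNGCAA (C/EBP), CAAAGTCCA (HNF4), TTCNNNGAA (GAS) or the NF-kB motif on either strand. These letters occur in 10.8%, 0.475%, 8.30% and 0.411% of all promoters of that length, in the same order.

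The partners of the urea cycle moved as its enzymes did: 7 of 7 were higher in liver tumors, against 16.7% of all tested genes. Their log2 changes had a median of 2.77. Car5a, the mitochondrial carbonic anhydrase that supplies bicarbonate, averaged 33.6 ± 6.85 CPM in liver tumors, against 2 reads in all in primary tumors, a ratio of 1817 (counting interval 503 to 15000). Nags, which makes the activator of Cps1, averaged 43.4 ± 11.6 CPM in liver tumors, against 2 reads in all in primary tumors, a ratio of 2319 (642 to 19150). Gls2, the liver-type glutaminase, averaged 196 ± 57.8 CPM in liver tumors and 17.4 ± 6.36 CPM in primary tumors (SD, n = 3 each; log2 change 3.49, SE 0.35, adjusted p = 0.000227). The mitochondrial carriers Slc25a15 and Slc25a13 and the enzymes Glud1 and Got2 were also higher. Got2, at a log2 change of 1.37, lost its call in 4 of the 6 fits that left out 1 library (without liver replicate 1 or 2, or primary replicate 1 or 3; adjusted p at most 0.0864). Slc25a13 lost its call without liver replicate 2 (adjusted p = 0.0539).

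Of 5 arginine transport genes other than Slc7a2, 3 were lower in liver tumors, 0 were higher and 2, Slc7a1 and Slc3a2, were not called (median log2 change -0.76). Over all tested genes 6.26% were lower and 16.7% higher. Slc7a7, a subunit that exports cationic amino acids, averaged 26.9 ± 2.34 CPM in liver tumors and 45.6 ± 4.07 CPM in primary tumors (log2 change -0.76, SE 0.17, adjusted p = 0.0148). Slc7a6, a close relative, averaged 57.4 ± 7.83 CPM in liver tumors and 100.1 ± 11.1 CPM in primary tumors (log2 change -0.80, SE 0.18, adjusted p = 0.016). Slc7a3, a cationic transporter, was rare, at 0.791 ± 0.244 CPM in liver tumors and 2.36 ± 0.850 CPM in primary tumors (log2 change -1.58, SE 0.43, adjusted p = 0.0323; SD, n = 3 each throughout). Without liver replicate 2 all 3 missed the threshold, with adjusted p of 0.0817, 0.0939 and 0.148 in that order. Slc7a6 also missed it without primary replicate 3 (0.0626), and Slc7a3 did in the fits lacking liver replicate 1 (0.0686), replicate 3 of liver (0.0738) and replicate 3 of primary (0.108). Slc7a1, the widely expressed arginine transporter, had a log2 change of -0.14 and was not called (adjusted p = 0.70).

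Of the nitric oxide list 12 genes were tested, with 5 higher and 1 lower in liver tumors (median log2 change 0.72). Over all tested genes 16.7% were higher and 6.26% lower, so the 1 lower gene is near that share. Gchfr, which restrains the synthesis of the cofactor tetrahydrobiopterin, averaged 69.3 ± 16.03 CPM in liver tumors and 13.7 ± 2.43 CPM in primary tumors (log2 change 2.34, SE 0.24, adjusted p = 0.000288). The subunits of soluble guanylate cyclase, the nitric oxide receptor, were both higher: Gucy1b3 averaged 11.4 ± 3.09 CPM in liver tumors and 1.95 ± 0.174 CPM in primary tumors (log2 change 2.54, SE 0.30, adjusted p = 0.000643). Gucy1a3 averaged 15.5 ± 4.05 CPM in liver tumors and 2.22 ± 0.788 CPM in primary tumors (log2 change 2.81, SE 0.36, adjusted p = 0.000984). Qdpr, which regenerates the cofactor, and Ddah1, which degrades inhibitory methylarginines, were higher, while Ddah2 was lower and sat at the threshold (adjusted p = 0.0498), missing it in 5 of the 6 fits that left out 1 library (up to 0.176, without liver replicate 2; called only without primary replicate 2). No nitric oxide synthase was called: the endothelial Nos3 had a log2 change of 0.84 (adjusted p = 0.107, range over the alternatives 0.044 to 0.453).

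Among 14 tested polyamine genes 2 were higher and 1 lower in liver tumors (median log2 change -0.18), shares near the 16.7% and 6.26% of all tested genes. Agmat, which hydrolyses agmatine, averaged 101 ± 30.8 CPM in liver tumors, against 2 reads in all in primary tumors, a ratio of 5311 (counting interval 1470 to 43850). Sat2 averaged 8.58 ± 2.81 CPM in liver tumors and 1.99 ± 0.386 CPM in primary tumors (log2 change 2.11, SE 0.35, adjusted p = 0.00377). Smox, the spermine oxidase, fell to 17.998 ± 4.49 CPM in liver tumors, against 43.2 ± 4.73 CPM in primary tumors (log2 change -1.26, SE 0.23, adjusted p = 0.0054). The other 11, among them the enzymes around Odc1 that make spermidine and spermine, were not called.

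Of 9 genes of ornithine, proline and creatine metabolism, 4 were higher and 2 lower in liver tumors (median log2 change -0.16), beside 16.7% and 6.26% of all tested genes. Prodh, the proline dehydrogenase, averaged 125 ± 31.3 CPM in liver tumors and 5.73 ± 0.926 CPM in primary tumors (log2 change 4.45, SE 0.27, adjusted p = 1.38e-05). Oat, which turns ornithine toward glutamate and proline, averaged 667 ± 108 CPM in liver tumors and 95.8 ± 1.89 CPM in primary tumors (log2 change 2.80, SE 0.22, adjusted p = 6.1e-05). Gamt, which completes creatine synthesis, averaged 114 ± 52.4 CPM in liver tumors and 13.7 ± 2.98 CPM in primary tumors (log2 change 3.05, SE 0.36, adjusted p = 0.000579). Gatm was also higher, and the creatine transporter Slc6a8 was lower (log2 change -1.08, SE 0.21, adjusted p = 0.00806). Among 8 genes that carry the signals known to induce Arg1 or Nos2, the receptors Il4ra (log2 change -0.79, SE 0.19, adjusted p = 0.0221) and Ifngr1 (-0.61, SE 0.17, adjusted p = 0.0331) were lower in liver tumors and 0 were higher. Of all tested genes 6.26% were lower and 16.7% higher. With the replicate numbers as a block Ifngr1 had an adjusted p of 0.0765 (range over the alternatives 0.00299 to 0.147). Leaving out 1 library ended the call of Ifngr1 in 5 of 6 fits and that of Il4ra in 4 of 6, the highest adjusted p being 0.147 for Ifngr1 and 0.113 for Il4ra, both without liver replicate 2.

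**Figure D2:**
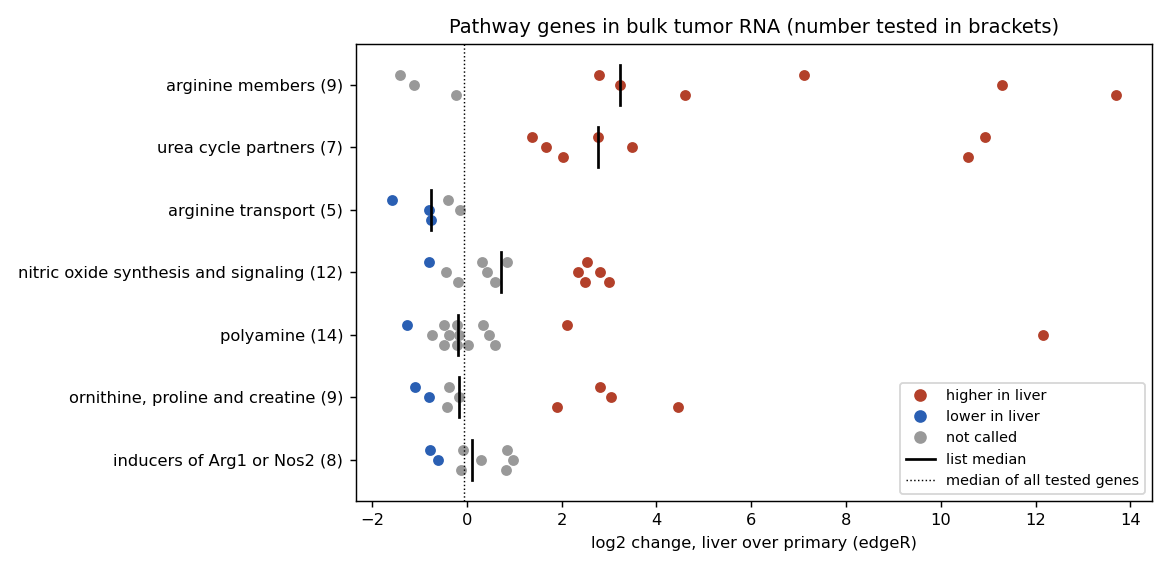
Bulk log2 change, liver over primary (edgeR), of each tested gene in the 9 genes followed here and in the 6 lists around them, colored by call, with list medians as black lines and the median of all tested genes dotted. The urea cycle partners lie wholly to the right, at 7 of 7 higher (16.7% of all tested genes). The transport list lies to the left, at 3 of 5 lower (6.26% of all tested genes).

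The single-cell libraries gave 7509 called cells from the liver tumor (median 6757 UMIs) and 2249 from the primary tumor (median 12012 UMIs), and 7 called barcodes occurred in both. At least 1500 UMIs and at most 10% mitochondrial UMIs were asked of a cell, which removed 39.1% of liver and 69.5% of primary barcodes over the UMI minimum for their mitochondrial share. Clusters made without the pathway genes held 2937 liver and 1469 primary macrophage-like cells (monocyte or macrophage markers), and 510 liver and 221 primary neutrophil-like cells. Against the CD45 label, 3502 liver and 321 primary cells were epithelial-like. Hepatocyte-like cells numbered 12 in the liver library, while the primary library had 0. With 1 library per site there is no replicate check and no test, and intervals are 95% and cover counting error only.

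Arg1 in the sorted cells belonged almost wholly to macrophage-like cells, which held 97.1% of its UMIs in the liver library (99658 of 102610) and 99.1% in the primary library (42748 of 43157). Their level was 2785 CPM in the liver library (Poisson interval 2767 to 2802) and 1956 CPM in the primary library (1938 to 1975). That is a log2 ratio of 0.51, which depended on how cells were grouped. It was 0.0014 at a minimum of 3000 UMIs, where a cluster of 737 cells stayed unnamed, and 2.25 with the libraries clustered apart. The unnamed cells were led by Ctrb1, an acinar marker, with Rgs1 and Pde4b also among their leading genes. After thinning each cell to 1000 UMIs, an Arg1 UMI was found in 56.7% of liver and 41.1% of primary macrophage-like cells (82.9% and 67.3% unthinned). The same share in T cell-like cells, which should lack the gene, was 8.86% in the liver library and 4.20% in the primary library (38.6% and 28.6% unthinned). Median depths were 11192 liver and 13881 primary UMIs in macrophage-like cells, and 5684 liver and 10702 primary UMIs in T cell-like cells.

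Arg1 was uneven among macrophage-like cells. In thinned cells the 294 cells with most Arg1 held 44.0% of its UMIs among 2937 in the liver library, and the 147 with most held 57.1% among 1469 in the primary one. Its level over 26 cluster-by-library sums ran most like those of F13a1 (Pearson r 0.956), Pf4 (0.955), Cd93 (0.930), Ccl9 (0.927) and Tmem37 (0.920) among 2872 genes, which share the libraries and their depth. These sums also took in epithelial-like, neutrophil-like, T cell-like and dendritic-like clusters, so they do not show likeness within macrophage-like cells alone. In other leukocytes Arg1 was lower: neutrophil-like cells stood at 175 CPM in the liver library and 72.3 CPM in the primary library. Near-empty barcodes (500 to 1000 UMIs in the liver library, 100 to 300 UMIs in the primary library) were taken to show RNA outside cells. This was not tested, and cells of few UMIs in these windows were not set apart. The near-empty barcodes had 431 CPM in the liver library and 690 CPM in the primary library, above the neutrophil-like level in each. T cell-like cells stood lower than neutrophil-like cells, at 74.5 CPM in the liver library and 47.2 CPM in the primary one. In the primary library 1 T cell-like cell held 36 of the 74 UMIs. There the intervals overlapped, at 37.0 to 59.2 CPM in T cell-like and 53.2 to 96.2 CPM in neutrophil-like cells. With cells thinned to 1000 UMIs, Arg1 was found in 14.7% of liver and 8.60% of primary neutrophil-like cells. The T cell-like shares at that depth were 8.86% liver and 4.20% primary. Thinning to 2000 UMIs kept 285 of 510 liver and 195 of 221 primary neutrophil-like cells, the deeper ones. Among these the shares were 31.2% liver and 9.74% primary, and in T cell-like cells 11.1% liver and 7.63% primary. The part of RNA outside cells in the neutrophil-like level was not tested. Erythroid-like cells of the liver library had 632 CPM, but 5 of 92 cells held 128 of the 155 UMIs. An unnamed cluster led by Gkn2 and Gkn1 was also high, at 1851 CPM in 99 liver cells and 2110.2 CPM in 17 primary cells. Its best marker list was that of monocytes or macrophages, and it stayed unnamed because gastric secretory genes led it.

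Hepatocyte RNA in the liver library was followed through the 14 hepatocyte markers. In macrophage-like cells there were 73.3 Arg1 UMIs for each hepatocyte-marker UMI (99658 over 1360), against 1.94 in near-empty barcodes and 0.0964 in the 12 hepatocyte-like cells. Cps1 behaved otherwise, at 0.0176 per hepatocyte-marker UMI in macrophage-like cells (24 UMIs), 0.0168 in near-empty barcodes (175 UMIs) and 0.0151 in hepatocyte-like cells (8 UMIs). Otc stood at 0.00735 in macrophage-like cells (10 UMIs), 0.0226 in near-empty barcodes (235 UMIs) and 0.0284 in hepatocyte-like cells (15 UMIs). In the primary library Cps1 and Otc had 0 UMIs in macrophage-like cells, which allows up to 0.169 CPM at the upper end of the interval.

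**Figure D3:**
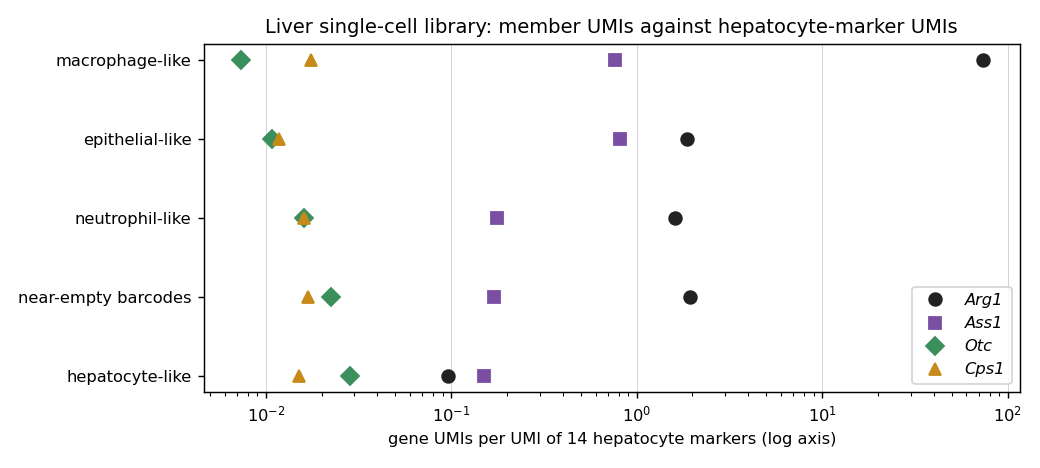
UMIs of Arg1, Ass1, Otc and Cps1 for each UMI of the 14 hepatocyte markers (log axis) in 4 cell classes and the near-empty barcodes of the liver library, without error bars. Cps1 keeps nearly 1 ratio in macrophage-like cells, near-empty barcodes and hepatocyte-like cells, while Arg1 is at 73.3 in macrophage-like cells and 0.0964 in hepatocyte-like cells.

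Summed over the class, the hepatocyte-like cells held UMIs of every enzyme of the cycle. Presence together in the same cell was not tested. Over 12 cells Ass1 stood at 2265 CPM (interval 1793 to 2823), Arg1 at 1462 CPM (1089 to 1923), Asl at 974.8 CPM (675 to 1362), Otc at 430 CPM (241 to 709) and Cps1 at 229 CPM (99.0 to 452). Nos2 and Arg2 had 0 UMIs there, which allows up to 106 CPM each. Slc7a2, which was higher in liver tumors in bulk, had 1 UMI there, or 28.7 CPM (0.726 to 160). These cells had a median of 2290 UMIs, and they are what the CD45 sort let through, so their number says nothing of hepatocytes in the tumor.

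Nos2 was lower in macrophage-like cells of the liver library. They had 4.69 CPM in the liver library (168 UMIs, interval 4.01 to 5.46), against 38.0 CPM in the primary library (831 UMIs, 35.5 to 40.7). Near-empty barcodes had 0.917 CPM in the liver library and 16.3 CPM in the primary library, below the macrophage-like level in both. These windows were chosen after seeing the data. Barcodes of 10 to 100 UMIs had 8.35 CPM in the liver library (4 UMIs, interval 2.27 to 21.4), not below the macrophage-like level, and 5.29 CPM in the primary library (2 UMIs, 0.641 to 19.1). T cell-like cells had 0 Nos2 UMIs in either library. After thinning, 0.511% of liver and 2.72% of primary macrophage-like cells had a Nos2 UMI (2.11% and 11.6% unthinned). Neutrophil-like cells had 6.11 CPM in the liver library (7 UMIs, interval 2.46 to 12.6) and 44.6 CPM in the primary library (29 UMIs, 29.9 to 64.1).

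Nos2 and Arg1 were not kept by separate cells. Of thinned macrophage-like cells with a Nos2 UMI, 14 of 15 liver cells and 39 of 40 primary cells also had an Arg1 UMI. Among cells without a Nos2 UMI the share with Arg1 was 56.5% in the liver library and 39.5% in the primary library. At 2000 UMIs the shares were 25 of 29 liver and 56 of 65 primary cells with Nos2, against 66.25% of liver and 45.6% of primary cells without. Over the same cluster-by-library sums, macrophage-like and other clusters together, Nos2 ran most like Nisch (Pearson r 0.767), Grina (0.758), Cd14 (0.754), Cxcl3 (0.752) and Bnip3 (0.749). This was a weaker likeness than that of the Arg1 set.

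Different clusters made up the macrophage-like class at each site. The libraries were clustered together without correction for library, so site and library cannot be told apart here. The part of RNA outside cells in this split was not tested. Clusters led by Gpnmb and Fabp5, by Cx3cr1 and Ccr2, and by Vcan and Ccl24 held 1059, 862 and 441 of 2937 liver cells, but 40, 30 and 34 of 1469 primary cells. Clusters led by Rgs1 and Pde4b and by Cxcl9 and Gbp2b held 56 and 75 liver cells, but 889 and 433 primary cells. Within clusters the order of the sites varied. Arg1 in the Rgs1 cluster was 6111 CPM in liver cells (5879 to 6351) and 2125 CPM in primary cells. In the Cxcl9 cluster it was 333 CPM in liver cells and 1347 CPM in primary cells. In the Vcan cluster, the highest for Arg1 in primary cells, it was 5824 CPM in liver cells and 8074 CPM in primary cells.

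The Gpnmb cluster, the largest of the liver, had 3299 CPM of Arg1 in liver cells and 3579 CPM in primary cells, and the Cx3cr1 cluster 605 CPM in liver cells and 1317 CPM in primary cells. Cycling cells, led by histone genes, had 2576 CPM in liver cells and 134 CPM in primary cells. A cluster of liver cells led by Cd5l and Vsig4, markers of Kupffer cells, had 1222 CPM, and 46 liver cells led by Chil3 and Ly6c2, markers of recruited monocytes, had 74.6 CPM.

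For Nos2 the Rgs1 cluster ran against the class as a whole, with 117 CPM in 56 liver cells (interval 86.9 to 154) and 43.5 CPM in 889 primary cells (39.8 to 47.4). This cluster has Il1r2, a neutrophil marker, among its 10 leading genes beside the macrophage marker Cd14. In the Cxcl9 cluster Nos2 was at 1.28 CPM in liver cells (1 UMI) and 41.4 CPM in primary cells (37.0 to 46.2). In the Gpnmb cluster it was at 3.32 CPM in liver cells and 5.63 CPM in primary cells, within counting error. The lower class level of Nos2 in the liver library stood beside few liver cells in the Rgs1 and Cxcl9 clusters. The part of cluster make-up in that level was not tested.

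**Figure D4:**
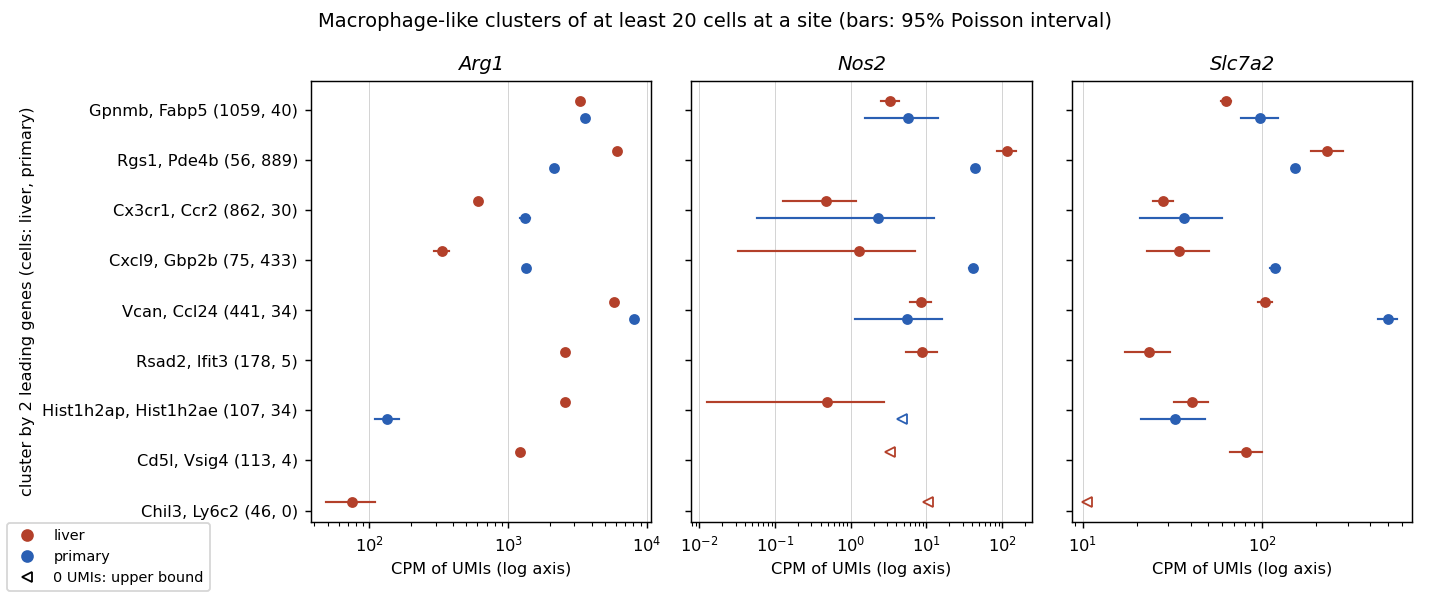
CPM (log axis) of Arg1, Nos2 and Slc7a2 in macrophage-like clusters of at least 20 cells at a site, liver above primary, with 95% Poisson intervals and open triangles for the upper bound at 0 UMIs. Among liver cells Nos2 is highest in the Rgs1 cluster, at 117 CPM (50 UMIs). In primary cells the Rgs1 cluster (43.5 CPM) and the Cxcl9 cluster (41.4 CPM) have overlapping intervals. Arg1 exceeds 1000 CPM in most clusters.

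Slc7a2 in macrophage-like cells was at 57.8 CPM in the liver library (55.3 to 60.3) and 140 CPM in the primary library (135 to 145), the reverse of its order in bulk. The log2 ratio of -1.28 shrank to -0.50 with the libraries clustered apart and unnamed clusters given their best list. Its highest cluster was the Vcan one in primary cells, at 499 CPM, against 103 CPM in liver cells of that cluster. Thinned cells with an Arg1 UMI had Slc7a2 in 7.20% of liver and 16.9% of primary cells, against 2.68% of liver and 3.70% of primary cells without Arg1. Near-empty barcodes had 15.3 CPM in the liver library and 73.1 CPM in the primary library.

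Ass1 and Asl, which in macrophages rebuild arginine from citrulline, were low. Ass1 stood at 29.1 CPM in liver macrophage-like cells (27.3 to 30.9) and 59.0 CPM in primary ones (55.9 to 62.3), with near-empty barcodes at 37.6 CPM in the liver library and 28.7 CPM in the primary library. For each hepatocyte-marker UMI of the liver library there were 0.765 Ass1 UMIs in macrophage-like cells, 0.169 in near-empty barcodes and 0.149 in hepatocyte-like cells. The part of RNA outside cells in the liver level was not tested. Asl differed little, at 37.6 CPM in liver macrophage-like cells and 34.7 CPM in primary ones, beside 29.1 and 26.5 CPM in near-empty barcodes of the liver and primary libraries.

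Arg2 was highest in neutrophil-like cells. It reached 104 CPM in liver neutrophil-like cells (119 UMIs, interval 86.1 to 124) and 165 CPM in primary ones (107 UMIs, 135 to 199). Macrophage-like cells had 7.46 CPM in the liver library and 6.22 CPM in the primary library, and near-empty barcodes 3.79 CPM in the liver library and 8.88 CPM in the primary library. Being more numerous, macrophage-like cells still held most Arg2 UMIs, at 56.8% in the liver library (267 of 470) and 54.0% in the primary one (136 of 252). Neutrophil-like cells held 25.3% of them in the liver library and 42.5% in the primary library. After thinning, 9.22% of liver and 15.4% of primary neutrophil-like cells had an Arg2 UMI, with overlapping intervals of 6.85 to 12.1 and 10.9 to 20.8 (18.8% and 31.7% unthinned). Smox, lower in liver tumors in bulk, was also highest in neutrophil-like cells, at 63.7 CPM in the liver library and 325 CPM in the primary library.

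Odc1 was highest in epithelial-like cells, at 200.4 CPM in the liver library and 169 CPM in the primary library, and lower in macrophage-like cells, at 69.2 CPM in the liver library and 41.7 CPM in the primary library. Near-empty barcodes had 157 CPM in the liver library and 51.9 CPM in the primary library, above the macrophage-like level in each. Its cluster levels ran most like those of Pfdn4 (Pearson r 0.936), Rbm8a (0.924), Tpm1 (0.916), Ywhaq (0.915) and Phgdh (0.914).

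**Figure D5:**
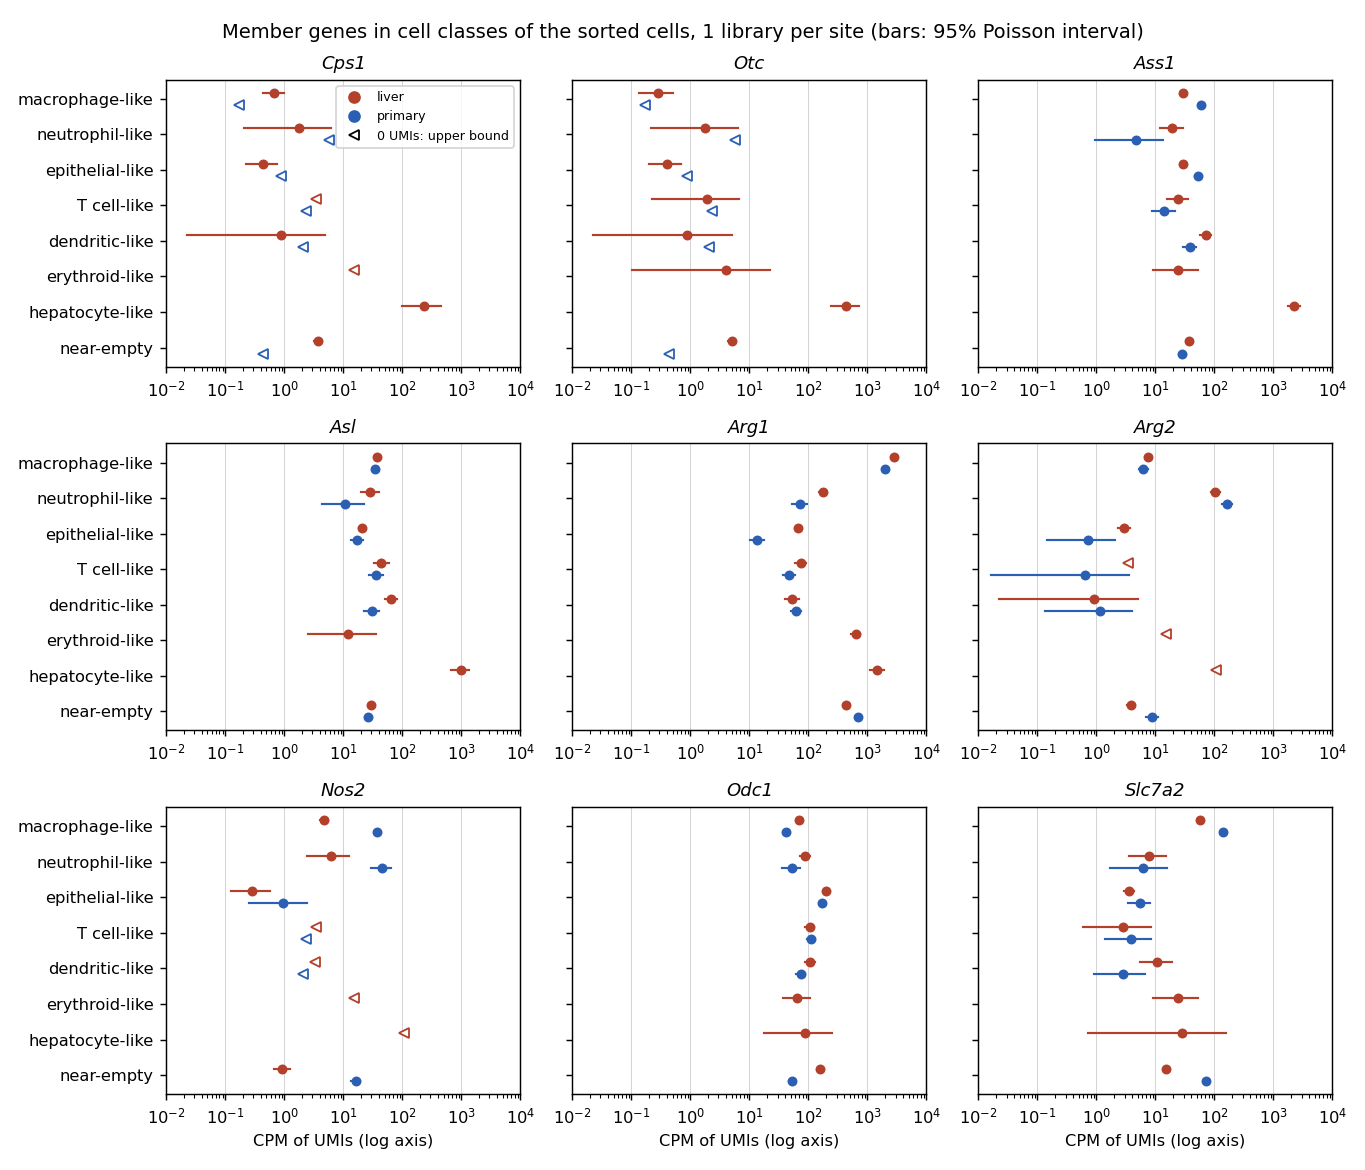
CPM of UMIs (log axis) of the 9 genes in cell classes of at least 10 cells and in near-empty barcodes, liver above primary, with 95% Poisson intervals and open triangles for the upper bound at 0 UMIs. Among named classes Arg1 is highest in macrophage-like cells, Arg2 in neutrophil-like cells and Odc1 in epithelial-like cells, while Cps1 and Otc exceed 100 CPM only in hepatocyte-like cells.

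Some partners called in bulk were nearly missing from the sorted leukocytes, while Glud1, another urea cycle partner, stood at 185 CPM in liver macrophage-like cells and 180.3 CPM in primary ones. Nags and Car5a had 5 UMIs each in 2937 liver macrophage-like cells and 0 in 1469 primary ones. Agmat had 7 UMIs in the same liver cells and 0 in the primary ones, but 9 UMIs in the 12 hepatocyte-like cells, or 258 CPM (118 to 490). Gatm, higher in liver tumors in bulk, was at 183 CPM in liver macrophage-like cells and 354 CPM in primary ones, the opposite order. Il4ra and Ifngr1, lower in liver tumors in bulk, had the same order there: Il4ra was at 141 CPM in liver macrophage-like cells and 268 CPM in primary ones, and Ifngr1 at 221 CPM in liver cells and 393 CPM in primary cells. Slc7a7 and Slc6a8, also lower in liver tumors in bulk, had the opposite order in macrophage-like cells. Slc7a7 was at 40.0 CPM in liver cells and 30.3 CPM in primary cells, and Slc6a8 at 17.6 CPM in liver cells and 11.1 CPM in primary cells.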

How the data were processed

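Bulk RNA-seq and single-cell libraries of liver and primary tumors were grouped by the labels. The authors deposited raw read counts per gene and, beside them, FPKM, and for single cells UMI counts of all barcodes. Processing used bcl2fastq, Cell Ranger and mm10, per the submitters' processing notes, while the bulk aligner and strandedness are not given in the sources used here. Bulk counts were filtered with filterByExpr and tested with edgeR 4.0.16 (TMM, robust quasi-likelihood) at an adjusted p of 0.05 in R 4.3.3. DESeq2 1.42.0 and limma 3.58.1 were alternatives, and the fit was tested on simulated data. FPKM served for levels between genes. Cells were clustered with scanpy 1.11.5 and leidenalg 0.10.2 (2000 variable genes, 30 components, 15 neighbors, resolution 1), after cells with a Scrublet score above 0.25 were removed (109 liver, 28 primary), since its automatic threshold marked 1 liver and 5 primary cells. Classes were named from marker lists. UMIs were summed per class and library, with exact 95% intervals for counting error only. The near-empty windows were chosen after seeing the data. Members and lists were chosen with earlier results of these data known. Named genes were all 9 members, the called genes of each list (values for up to 3 of smallest p), the 3 highest markers beside results they touch, and the 5 genes most alike by Pearson's r for Arg1, Nos2 and Odc1. Slc7a1, Slc3a2 and Nos3, which were not called, were named after their values were seen. A called gene of the ornithine, proline and creatine list is counted but not reported here.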

Additional observations from a re-analysis of the deposited data

Results flagged for a closer look

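Alb stood at 545 CPM in the primary library's barcodes of 10 to 100 UMIs (206 UMIs), data outside the comparisons, beside 415 CPM in the same window of the liver library. In that primary window 27.2% of 18590 barcodes had at least 300 UMIs in the liver library. Between 100 and 300 UMIs, where 2.41% did, Alb was at 0.355 CPM in the primary library, and Cps1 and Otc had 0 UMIs. The part of shared barcodes in the Alb level was not tested.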

How the results depend on the processing

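The 6 members called higher in liver tumors stayed called under every bulk alternative run. Of 142 gene-by-setting pairs of the members, 139 kept their direction and side of the threshold, and 2 passed it only with plain library totals. That setting gave 4646 genes lower in liver tumors, 2 members lower and 17 list genes lower, and DESeq2 gave 1567 genes lower. With 1 library left out in turn, the log2 change of Arg2 ran between -1.90 (without primary replicate 1) and 0.23 (without primary replicate 2). That of Slc7a1 ran between -0.40 (without liver replicate 3) and 0.0047 (without liver replicate 1), and was 0.0033 without primary replicate 2. Leaving out 1 library in turn gave 1810 to 3346 genes higher and 134 to 1468 lower, 6 to 6 members higher and 0 to 0 lower, and 16 to 19 list genes higher and 2 to 10 lower. The replicate numbers did not pair the libraries (correlations of deviations -0.18, 0.25 and 0.09). With the replicate block 2703 genes were higher and 873 lower, and members stood at 6 and 0. In macrophage-like cells the log2 ratio of Arg1 was 0.0014 at a minimum of 3000 UMIs (0.53 with the unnamed cluster given its best list), 0.54 at 20% mitochondrial UMIs, and 2.25 with libraries clustered apart (1.34 with best lists). That of Nos2 was -3.48 at 3000 UMIs, -2.67 with libraries clustered apart and -2.77 with best lists. At 3000 UMIs 723 primary macrophage-like cells were left. The best-list settings were chosen after seeing the data, and the cause was not tested elsewhere. Nos2 and Arg2 rest on few bulk reads, and single cells on 1 library per site.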
